A study of Mus musculus with 3 samples.

Results

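The co-receptors described here are 10 genes of the CD28 and immunoglobulin families: Cd28, Icos, Ctla4, Pdcd1, Btla, Tigit, Cd226, Cd96, Lag3 and Havcr2. They were chosen by name, each matched to 1 gene of GENCODE M21, out of 55536 genes measured, of which 22028 were protein-coding. Polyadenylated RNA was sequenced from effector memory CD4 T cells carrying an alpha-beta receptor, primary cells of 1 male adult C57BL/6J mouse aged 7 months. The labels name no treatment, allele or tissue of origin. There were 3 libraries, technical replicates 1, 2 and 3 of 1 biological replicate, in 1 group. No second condition or cell type exists, so levels are descriptions, and each SD and p-value measures only the technical spread within 1 mouse. Levels are in TPM (a share of all transcripts, corrected for transcript length), given as mean ± SD over the 3 libraries.

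Co-receptors tune the signal that a T cell takes from its antigen receptor. CD28 and ICOS carry tyrosines that recruit PI3-kinase and raise activation, whereas CTLA-4 takes the same B7 ligands as CD28 and restrains it, largely from an intracellular pool. PD-1, BTLA and TIGIT are inhibitory and carry tyrosine motifs that recruit phosphatases or adaptors, CD226 competes with TIGIT and CD96 for nectin-like ligands, and LAG-3 and TIM-3 mark chronically stimulated T cells.

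Gene counts summed to between 14152590 and 16251564 per library, where 3 counts, the most that a count of 0 allows, equal 0.185 to 0.212 CPM (a share of all counts, not corrected for length). The labelled cell type was checked against its markers. The 6 CD4 T cell markers summed to 5606.5 to 6267.5 TPM over the libraries. The CD8 T cell list summed to 3.34 to 5.14 TPM. Nearly all of it was Cd8b1 at 3.31, 4.1 and 5.08 TPM, while Cd8a stayed at or under 0.06 TPM. The summed lists were 0.26 to 0.69 TPM for gamma-delta T cells, 0.86 to 1.68 TPM for B cells and 2.77 to 5.44 TPM for monocytes and macrophages. They were 2.27 to 2.88 TPM for dendritic cells and 0.10 to 0.29 TPM for mast cells and basophils. The NK list summed to 15.9 to 25 TPM, most of it Klrb1c at 13.4 to 21.5 TPM and the rest Eomes, a factor that some T cells also express, at 2.40 to 3.76 TPM, while its defining receptor gene Ncr1 was at or under 0.16 TPM and Klra8 and Klra4 were at 0. The regulatory T cell list summed to 27.1 to 28.8 TPM, mostly Il2ra at 22.0 ± 0.643 TPM. Of the same list, Ikzf2 had 3.72 to 5.8 TPM and Ikzf4 0.32 to 1.02 TPM. Foxp3, the defining factor of this list, had 0.23 TPM in library 2 and 0 in libraries 1 and 3.

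The tails of the 10 proteins differ in the motifs they carry, and the codons of these motifs are shown because they set the order of the account below. All sequences are GENCODE M21 coding sequence on GRCm38/mm10, 5′ to 3′ on the coding strand, with the motif codons in capitals. The first set holds the YxxM motif, a tyrosine followed by a methionine 3 residues on, which binds PI3-kinase in CD28 and ICOS and the clathrin adaptor in CTLA-4. It was found once each in the tails of Cd28 (chr1:60769684-60769713, plus strand), Icos (chr1:60995551-60995580, plus strand) and Ctla4 (chr1:60914637-60914666, plus strand), and in no other member.
Cd28 YxxM: caaagtgacTACATGAACATGactccccgg
Icos YxxM: aatagtgaaTACATGTTCATGgcggcagtc
Ctla4 YxxM: acaggggtcTATGTGAAAATGcccccaaca

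The second set holds the inhibitory motif ITIM, which binds phosphatases, and the switch motif ITSM. Pdcd1 (chr1:94039479-94039514 and chr1:94039410-94039445, minus strand) and Btla (chr16:45250481-45250516 and chr16:45250556-45250591, plus strand) held 1 of each. Tigit (chr16:43649025-43649060, minus strand) and Cd96 (chr16:46035915-46035950, minus strand) held 1 ITIM and no ITSM.
Pdcd1 ITIM: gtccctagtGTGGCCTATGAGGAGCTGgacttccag
Pdcd1 ITSM: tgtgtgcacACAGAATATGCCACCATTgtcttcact
Btla ITIM: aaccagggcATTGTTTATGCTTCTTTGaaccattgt
Btla ITSM: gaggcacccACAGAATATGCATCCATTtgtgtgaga
Tigit ITIM: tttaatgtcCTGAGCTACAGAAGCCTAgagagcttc
Cd96 ITIM: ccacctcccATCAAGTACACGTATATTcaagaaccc

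The co-receptors were transcribed unevenly. In TPM the costimulatory receptors Icos and Cd28 were highest, 6 genes lay between 46.7 and 150 TPM, Havcr2 was low and Lag3 was near the limit of detection. In the second deposited gene table, in CPM, Cd96 at 377 stood above Icos at 280 and Cd28 at 248. Of the 10 genes, 9 reached 1 TPM in every library, 8 reached 10 TPM and 5 reached 100 TPM, beside 45.5%, 32.9% and 7.27% of all protein-coding genes at these limits. Their median was 109 ± 3.58 TPM, against 0.72 ± 0.131 TPM for protein-coding genes. Together they summed to 1859.6 ± 19.8 TPM. In the order of mean TPM, 7 of 9 neighbouring pairs had ranges over the libraries that did not overlap. The exceptions were Cd96 with Tigit and Ctla4 with Pdcd1, whose ranges overlapped, with the order by mean kept in 2 of 3 libraries. Members were also ordered by CPM of the expected counts, and 5 of 9 neighbouring pairs in this new order had separate ranges. Of 45 pairs of members, 39 kept their order by TPM, and Tigit at 70.5 CPM came below Btla at 81.7 and Cd226 at 77.3 CPM.

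**Figure D1:**
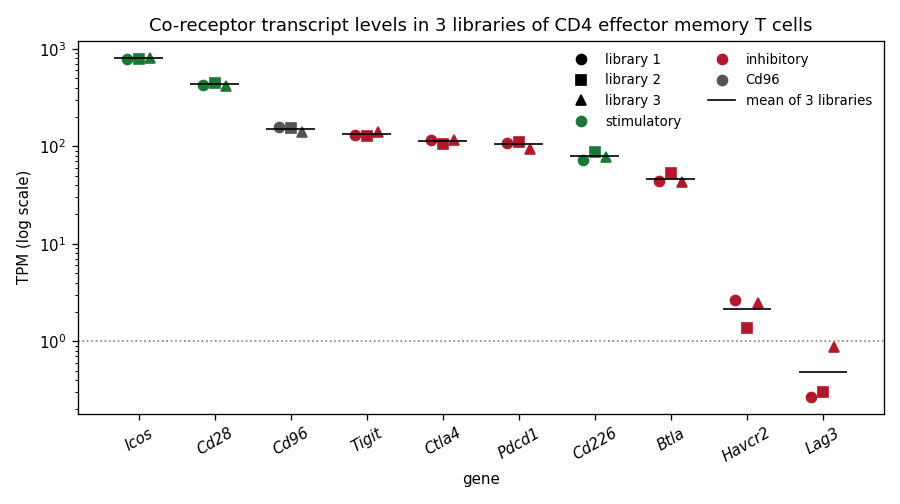
TPM of each co-receptor gene in each library, on a log axis, in the order of mean level. Points are libraries, horizontal bars are means of 3 libraries, colours give the receptor's role, and the dotted line marks 1 TPM; Icos and Cd28 stand highest, and every library of Lag3 lies below the line.

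Icos, whose product is induced on activation and sustains helper T cells, was the highest member. It had 786.8, 794.7 and 812.6 TPM in libraries 1, 2 and 3 (798 ± 13.2), resting on 47547 expected counts. It ranked 150th among 22028 protein-coding genes and spans chr1:60977927-61000320 on the plus strand. The listed gene nearest to it in level, by the difference in mean TPM on the log2 scale over the 3 libraries, was Cd2, an adhesion and costimulatory receptor, at 795 ± 30.3 TPM. A gene of undetermined type, Gm37039, lies inside Icos on the same strand and had 9.26 ± 2.34 TPM.

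Cd28, the constitutive costimulatory receptor, had 426.9, 447.2 and 419.7 TPM (431 ± 14.3) from 49000 expected counts. It ranked 323rd and lies upstream on the same strand at chr1:60716800-60773359. Icos exceeded Cd28 by 1.85 ± 0.0800 times in TPM, with all 3 libraries between 1.78 and 1.94. By expected counts, which are not divided by length, the pair was near equal, with Icos at 0.972 times Cd28, and in the second gene table Icos stood at 1.13 times Cd28. The gene nearest to Cd28 in level was Fyn, a Src-family kinase of the antigen receptor pathway, at 458 ± 38.0 TPM.

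Ctla4, the inhibitory counterpart of Cd28, lies between Cd28 and Icos on the plus strand at chr1:60887000-60915832, with 113.6 kb to the end of Cd28 and 62.1 kb to the start of Icos. It had 117.2, 106.1 and 117.3 TPM (114 ± 6.42), resting on 5910 expected counts. The listed gene nearest in level was Ppp2ca, the catalytic subunit of a phosphatase known to bind CTLA-4, at 117 ± 9.76 TPM. Its level was 0.264 ± 0.0231 times that of Cd28 and 0.142 ± 0.00792 times that of Icos. In CPM the first ratio was 0.121 with the expected counts and 0.468 with the second gene table, and the second ratio 0.124 and 0.414. Within this cluster of related genes the annotated proteins shared 26.1% of aligned residues between Cd28 and Ctla4. The share was 20.8% between Cd28 and Icos and 16.5% between Icos and Ctla4. This last share was below that of some pairs reaching outside the cluster, such as Cd28 with Tigit at 19.4% and Ctla4 with Btla at 19.3%. A ribosomal pseudogene inside Ctla4 on the same strand, Rpl18-ps1, had 4.4 ± 2.76 TPM.

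Ctla4 is annotated in a membrane form, Ctla4-201 with 223 residues, and a soluble form, Ctla4-202 with 174 residues. The soluble form skips exon 3 (chr1:60913219-60913328, plus strand, 110 bases), which encodes residues 153 to 189 and with them the hydrophobic stretch at residues 163 to 181. The exon and the junctions on either side of the choice are printed because a read across them tells the forms apart. Exon 3 is in capitals in the first and second sequences. In the third, capitals mark exon 4, which exon 2 (ending at 60912770) joins when exon 3 is skipped.
Ctla4-201 exon 2 to exon 3: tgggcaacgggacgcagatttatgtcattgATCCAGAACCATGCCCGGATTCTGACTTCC
Ctla4-201 exon 3: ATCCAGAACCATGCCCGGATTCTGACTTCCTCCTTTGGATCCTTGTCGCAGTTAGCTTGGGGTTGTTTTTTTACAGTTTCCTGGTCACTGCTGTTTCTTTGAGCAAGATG
Ctla4-202 exon 2 to exon 4: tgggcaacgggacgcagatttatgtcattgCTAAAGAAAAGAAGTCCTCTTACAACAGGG

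All Ctla4 counts were assigned to the membrane form, and the soluble form had 0 expected counts in every library. With 2198, 1769 and 1943 counts for the gene in libraries 1, 2 and 3, a count of 0 allows up to 0.136%, 0.170% and 0.154% of the counts. After division by transcript length this is 0.455%, 0.565% and 0.515% of the gene's level, for counting error only. The soluble form was thus not detected. The authors' posterior standard deviation of its count was 3.81 to 6.74 counts, wider than this limit. The authors' posterior mean TPM, which gives some weight to every transcript, put it at 1.02%.

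The transcripts of all 10 genes were sorted by their coding sequence into membrane, soluble, fragment and noncoding classes. A membrane transcript had a complete coding sequence with a hydrophobic stretch of 19 residues beginning after residue 60, and a soluble one had none. Of 28 annotated transcripts, 15 were classed as membrane, 2 as soluble, 3 as fragments and 8 as noncoding. Pdcd1, Tigit and Cd96 have 1 annotated transcript each, so their shares are fixed at 100%. The leading transcript by TPM was a membrane one in 8 of 10 members, the exceptions being Cd226 and Lag3. By expected counts it was a membrane one in 10 of 10.

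Cd28 was nearly uniform. Its membrane transcript Cd28-201 held 92.8%, 93.2% and 93.1% of the gene's TPM in libraries 1, 2 and 3, and the retained-intron transcript Cd28-203 nearly all of the rest, at 6.90% ± 0.240. By expected counts, Cd28-201 held 97.1%.

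Icos was divided between 2 transcripts of very unequal length. Icos-202 (3241 bases, 200 residues) held 56.2%, 59.6% and 57.0% of the TPM in libraries 1, 2 and 3, and Icos-201 (810 bases, 223 residues) held 43.8%, 40.4% and 43.0%. By expected counts, Icos-201 held only 14.9% ± 0.905, so the TPM of Icos depends on how counts were divided between a short and a long transcript. The forms share the extracellular part, the membrane stretch and the YxxM motif, and part at the end of the fourth exon of Icos-202, where Icos-201 reads on into the intron. The coding ends are printed with the part that differs in capitals, both starting at chr1:60995579 on the plus strand, Icos-202 ending at 60997714 after a splice and Icos-201 at 60995691 without one.
Icos-202 coding end: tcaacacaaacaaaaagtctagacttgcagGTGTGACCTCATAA
Icos-201 coding end: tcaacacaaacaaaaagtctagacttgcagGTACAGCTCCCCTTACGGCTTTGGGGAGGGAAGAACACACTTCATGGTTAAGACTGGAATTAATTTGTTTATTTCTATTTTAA

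Pdcd1, which encodes PD-1 and lies at chr1:94038305-94052553 on the minus strand, had 108.4, 111.9 and 94.0 TPM (105 ± 9.50) from 5445 expected counts. Library 3 was lowest, and the ranges of Pdcd1 and Ctla4 overlapped. Its level was 0.243 ± 0.0163 times that of Cd28, the receptor whose signalling PD-1 is known to dampen, and in CPM 0.111 times with the expected counts and 0.560 times with the second gene table. The listed gene nearest to Pdcd1 in level was Pik3r1, a regulatory subunit of PI3-kinase, at 104 ± 3.26 TPM.

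Btla, which binds the herpesvirus entry mediator HVEM, had 44.3, 53.0 and 42.8 TPM (46.7 ± 5.50), from 3702 expected counts at chr16:45224315-45257670 on the plus strand. Library 2 was highest. Btla-202 (305 residues) held 80.4% ± 4.14 of its TPM and Btla-201 (306 residues) 19% ± 3.25. The coding sequences of this pair differ by 3 bases at the junction of exons 3 and 4, where Btla-201 takes up an extra CAG, shown in capitals (both spanning chr16:45242718-45244179, plus strand). The transcripts also differ in total length, 3251 against 1598 bases, so counts were not divided by these 3 bases alone.
Btla-202 exon 3 to exon 4: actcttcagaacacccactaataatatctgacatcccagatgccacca
Btla-201 exon 3 to exon 4: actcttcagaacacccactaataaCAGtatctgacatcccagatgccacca

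The receptors of nectin-like ligands were all present. Tigit, the inhibitory member, had 130.0, 127.7 and 141.1 TPM (133 ± 7.13) from 3188 expected counts at chr16:43648867-43664146 on the minus strand. Cd96, for which inhibitory and stimulatory roles have both been described, had 158.4, 152.4 and 140.2 TPM (150 ± 9.27) from 8877 expected counts at chr16:46035657-46120251 on the minus strand. Their ranges overlapped, since Tigit was above Cd96 in library 3. By the same measure, the listed gene nearest in level to Tigit was Cd274 at 136 ± 11.1 TPM, and to Cd96 the lipid phosphatase gene Inpp5d at 163 ± 12.5 TPM. Both receptor genes share a region of chromosome 16 with Btla and with the immunoglobulin-family genes Cd200r1, Cd200 and Nectin3.

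Cd226, the stimulatory receptor among them, lies at chr18:89176967-89272229 on the plus strand. It had 72.8, 87.8 and 77.7 TPM (79.4 ± 7.64) from 3495 expected counts, below Tigit and Cd96 in each library. Tigit stood at 1.79, 1.45 and 1.82 times Cd226 in libraries 1, 2 and 3 in TPM, and Cd96 at 2.18, 1.74 and 1.8 times. By expected counts the first ratio turned round, with Tigit at 0.923 times Cd226, and in the second gene table Cd96 stood at 3.71 times Cd226. Summed over the 6 inhibitory members the level was 400.5 ± 2.14 TPM and over the 3 stimulatory members 1308.7 ± 21.6 TPM, a ratio of 0.306 ± 0.00621. This ratio was 0.184 in CPM of the expected counts and 0.754 in CPM of the second gene table.

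Cd226 was also the member with the most mixed transcripts. Its full-length membrane transcripts Cd226-207 and Cd226-201, both of 333 residues, held 18.9% ± 3.30 and 6.54% ± 3.06 of its TPM. The highest was the short Cd226-205 (742 bases, 129 residues), at 30.5%, 32.6% and 33.7% in libraries 1, 2 and 3. The class rule calls Cd226-205 soluble, but its protein holds the same hydrophobic stretch from residue 51, before the limit of the rule. With the limit at residue 30, chosen after its values were seen, the membrane share of Cd226 is 57.7% and the soluble share 0. Coding fragments Cd226-208 and Cd226-209 held 11.5% ± 5.04 and 7.39% ± 0.366, and the noncoding Cd226-210 and Cd226-204 held 12.2% ± 4.19 and 6.93% ± 3.05. By expected counts, in which short transcripts weigh less, the full-length forms held 62.4% ± 6.57.

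**Figure D2:**
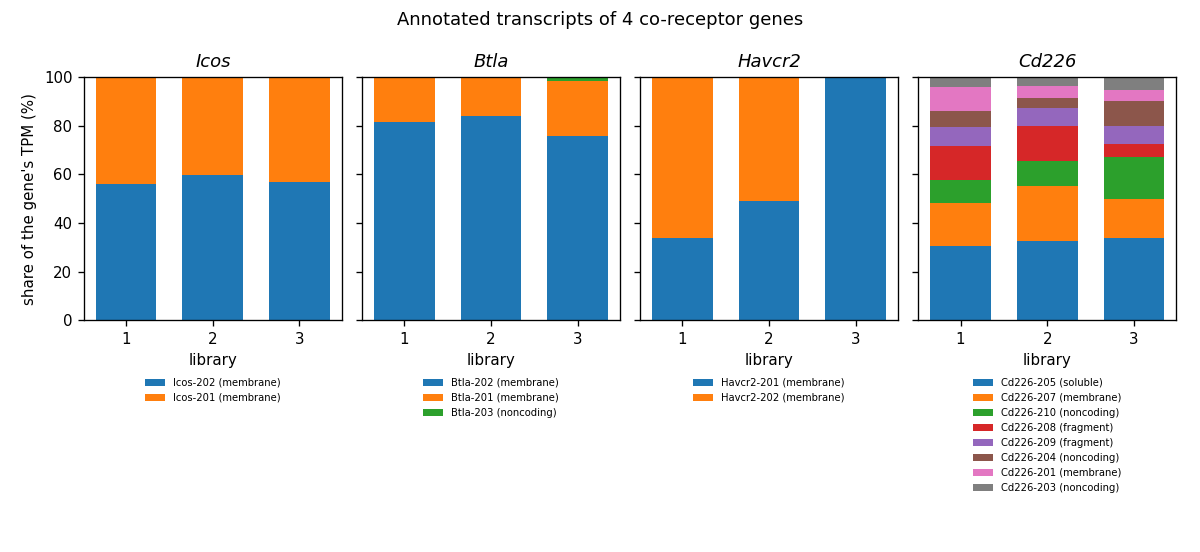
Share of each gene's TPM (%) held by each annotated transcript, for Icos, Btla, Havcr2 and Cd226, 1 bar per library, coloured by transcript with its class in brackets. The order of the transcripts of Icos and Btla is the same in the 3 libraries, library 3 of Havcr2 has 1 transcript only, and Cd226 is spread over 8.

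Lag3, an inhibitory receptor for class II molecules and relative of CD4, was almost silent. It had 2, 4 and 8 expected counts in libraries 1, 2 and 3, or 0.27, 0.30 and 0.88 TPM, and 14 counts in all (exact Poisson 95% interval 7.65 to 23.5, counting error only). It lies at chr6:124904361-124911705 on the minus strand, 16.1 kb from the end of Cd4, which had 476 ± 4.74 TPM. Its membrane transcript Lag3-201 held 45.4% ± 24.1 of its TPM, a share that rests on these few counts.

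Havcr2, which encodes TIM-3, lies at chr11:46454935-46481255 on the plus strand and had 2.64, 1.36 and 2.47 TPM (2.16 ± 0.695). These values rest on 67, 31 and 58 expected counts, with library 2 lowest. Its transcripts Havcr2-201 (281 residues) and Havcr2-202 (232 residues) both keep the membrane stretch. Havcr2-202 lacks 147 coding bases of exon 2, printed in capitals with their flanks (chr11:46456270-46456446, plus strand) because they encode part of the immunoglobulin domain.
Havcr2-201 exon 2 part: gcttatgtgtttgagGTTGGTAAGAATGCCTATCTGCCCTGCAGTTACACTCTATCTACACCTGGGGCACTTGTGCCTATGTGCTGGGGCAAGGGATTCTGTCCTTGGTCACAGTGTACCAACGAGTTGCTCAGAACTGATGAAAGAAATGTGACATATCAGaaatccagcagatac
Havcr2-201 had 0.89, 0.67 and 2.47 TPM in libraries 1, 2 and 3, and Havcr2-202 had 1.75, 0.69 and 0 TPM. The authors' posterior standard deviation of these transcript counts was 8.15 to 16.3 counts, so the split is uncertain at this depth.

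The genes of the ligands were next read in the same libraries, since helper T cells can themselves carry ligands. The median of 16 listed ligand genes was 5.28 ± 1.65 TPM, and 11 of them were at or above 1 TPM in every library, 7 at or above 10 TPM and 3 at or above 100 TPM. In a bulk sample a low level in all cells and a high level in few cannot be told apart. The receptors of the B7 ligands stood far above their ligands, with Cd80 at 4.05, 2.47 and 2.76 TPM and Cd86 at 6.88, 4.72 and 6.62 TPM in libraries 1, 2 and 3. Icosl, the ligand of ICOS, had 12.9 ± 0.564 TPM, and Tnfrsf14, which encodes the BTLA ligand HVEM, had 4.49 ± 2.32 TPM.

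By the ratio of mean TPM, PD-1 was the member whose ligand gene was closest in level. By expected counts it was not, with 5445 for Pdcd1 and 13385 for Cd274. Tigit at 3188 and Cd226 at 3495 expected counts lay closer to Pvr at 1921, and Lag3 had 14 beside 13 for Fgl1. Pdcd1 at 105 ± 9.50 TPM stood beside Cd274, which encodes PD-L1, at 136 ± 11.1 TPM, with Cd274 higher in each library. Pdcd1lg2, which encodes PD-L2, had 21.8 ± 1.15 TPM. The ligand of TIGIT, CD226 and CD96 was represented by Pvr at 34.3 ± 3.07 TPM, whereas Nectin3 had 1.98 ± 0.616 TPM, and Nectin1 and Nectin2 had 13 and 5 expected counts in all. For TIM-3 and LAG-3, some ligand genes lay above the receptor gene and others below it. Against 2.16 ± 0.695 TPM for Havcr2, Lgals9 (galectin-9) had 122 ± 4.78 TPM and Hmgb1, a chromatin protein that also binds TIM-3, 198 ± 7.95 TPM, while Ceacam1 had 13 counts in all. Against 0.483 ± 0.344 TPM for Lag3, Lgals3 (galectin-3) had 82.9 ± 8.83 TPM, Fgl1 had 13 counts in all and Clec4g had 0.

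**Figure D3:**
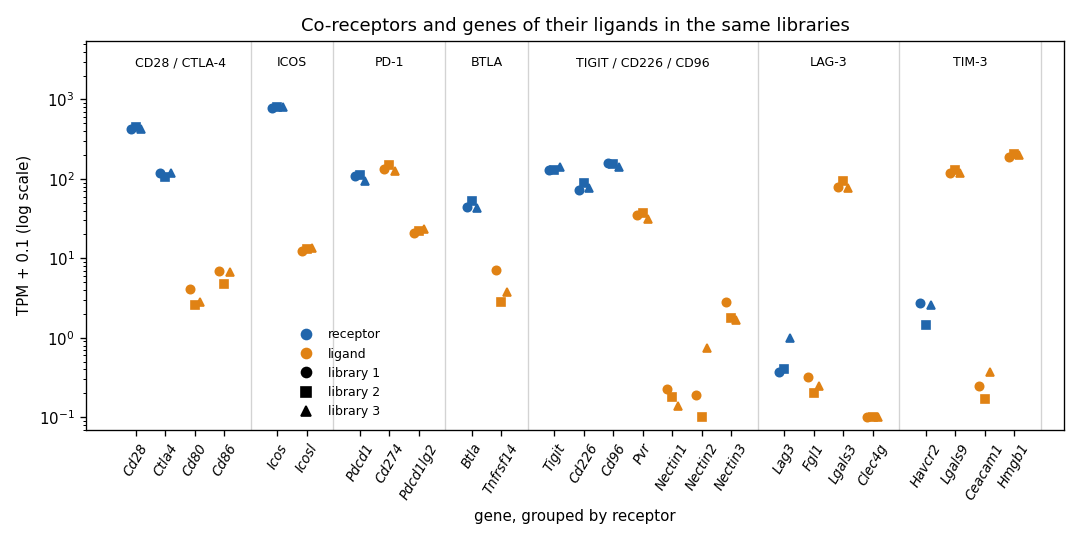
TPM + 0.1 on a log axis for each co-receptor (blue) and the genes of its ligands (orange), 1 point per library, grouped by receptor. Receptors lie above the ligands for CD28, CTLA-4, ICOS, BTLA, TIGIT, CD226 and CD96. Cd274 lies close to Pdcd1, and galectin genes and Hmgb1 lie above Lag3 and Havcr2.

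Other immunoglobulin-family and related co-receptors gave a scale for these levels. The median of 15 such genes was 18.5 ± 0.135 TPM, and 13 were at or above 1 TPM in every library, 10 at or above 10 TPM and 6 at or above 100 TPM. The 5 highest were Cd2 at 795 ± 30.3, the scavenger-receptor family gene Cd6 at 688 ± 78.4, Cd4 at 476 ± 4.74, the Cd6 relative Cd5 at 461 ± 10.3 and the inhibitory Vsir (VISTA) at 177 ± 6.40 TPM. Cd160, a second receptor for HVEM, had 5.49, 10.4 and 7.44 TPM, and Pvrig, an inhibitory receptor for NECTIN2, 4.29, 2.74 and 3.20 TPM. Havcr1 (TIM-1), 253.8 kb from Havcr2, had 0 counts in every library.

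The 24 listed genes of co-receptor signalling and traffic had a median of 121 ± 7.29 TPM. All 24 were at or above 10 TPM in every library and 15 at or above 100 TPM. Among the 5 highest were the kinase genes Lck at 1232 ± 151.5, Fyn at 458 ± 38.0 and Prkcq at 258 ± 17.3 TPM, and Ap2m1, a clathrin adaptor subunit that binds CTLA-4, at 292 ± 11.8 TPM.

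The 3 libraries were then compared gene by gene. A chi-square test of homogeneity asked whether a gene's expected counts, rounded to whole numbers, differed between libraries by more than counting noise, with Benjamini-Hochberg adjustment at 0.05 over 13949 genes. It called 8 of the 9 members with 30 or more counts, beside 57.2% of all genes tested. These members had 3188 to 49000 expected counts, except Havcr2 with 156. The genes beside them were not matched for count, on which both the call and the ratio of highest to lowest library depend. The ratios of highest to lowest library were 1.04 for Icos, 1.07 for Cd28, 1.11 for Ctla4, 1.14 for Cd96, 1.20 for Pdcd1, 1.27 for Cd226, 1.31 for Btla and 1.93 for Havcr2, with a median of 1.14 over the 9 members and 1.28 over all genes tested. Tigit was not called, with a ratio of 1.10 and an adjusted p of 0.12. Lag3 had too few counts.

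These calls changed with how noise was counted and with which libraries were kept. The chi-square of the median gene was 6.45 times that of counting noise, and after division by this factor the chi-square test called 0 of 9 members (2 with an unadjusted p under 0.05), beside 4.45% of all genes. Without library 2 it called 3 of 9, Icos, Pdcd1 and Cd96, beside 27.5% of genes. Without library 1 it called 7 members and 5516 genes, and without library 3 it called 6 members and 5277 genes. With all 3 libraries it had called 7973 genes. On the second deposited gene table it called 0 of 9 (2 with an unadjusted p under 0.05), beside 27.2% of genes.

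The shares of transcripts were tested the same way over 9608 genes with at least a pair of counted transcripts. Of 5 members tested, 4 were called (Icos, Btla, Cd226 and Havcr2), beside 85% of all genes, and Cd28 was not (adjusted p of 0.546). After division by the median inflation of 9.40 the chi-square test called 0 of 5 (1 with an unadjusted p under 0.05), beside 13.5% of genes. Without library 2 it called 2 of 5, Cd226 and Havcr2, beside 70.7% of genes, and without library 3 it called Icos and Cd226, beside 75.2%.

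The second gene table ranked some members in another order. In its CPM, 42 of 45 pairs of members kept their order by TPM. Of 9 neighbouring pairs in its own order, 7 had separate ranges. The second table holds whole-number counts on an earlier annotation, and how they were made is not given in the sources used here. Each of its counts corresponded to 13.6 expected counts for Cd28 and 11.7 for Icos, but to 3.52 for Ctla4, 2.70 for Pdcd1, 2.36 for Cd226, 1.62 for Cd96 and 1.5 for Tigit. Over 10168 genes with 30 or more counts in both tables the median was 1.86, and 3.8% of genes had a ratio of 10 or more. In CPM, Icos and Cd28 led the members in the table of expected counts, and Cd96 led in the second.

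**Figure D4:**
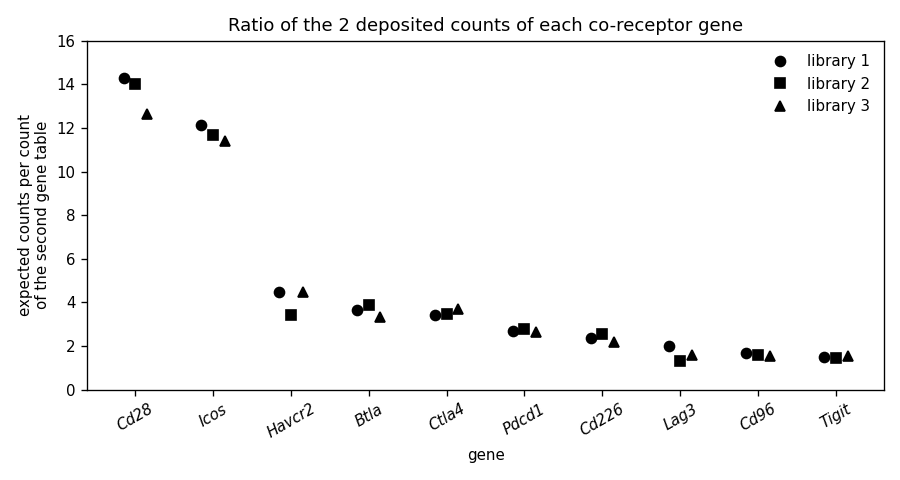
Expected counts per count of the second gene table (linear axis from 0) for each member, 1 point per library. Cd28 and Icos lie above 11 in every library, and the other members lie below 5.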

How the data were processed

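The deposited tables of 3 libraries were used, grouped by the labels into 1 group of technical replicates. Per the file headers, the authors deposited for each gene and transcript an expected count (an estimated count that shares ambiguous reads), TPM, FPKM, a posterior standard deviation of the count (a score of assignment uncertainty) and the percent of the gene's TPM held by each transcript. Per the deposited notes these lie on mm10 with GENCODE M21. A second table deposited by the authors holds a whole-number count per gene of GENCODE M4 from a separate alignment. No source used here gives the quantifier, the counting tools or the strand setting, so overlapping antisense transcription could not be separated, although no annotated gene overlaps a member on the opposite strand. FPKM served only as an alternative unit.

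Rows naming no mouse gene were left out: 26248 tRNA rows (0.0087% of counts), 96 spike-in rows at 0, and phiX174 (0.327% ± 0.214). Members were matched by symbol. Levels are the deposited TPM. Expected counts were rounded and tested with TMM effective library sizes from edgeR 4.0.16 in R 4.3.3, for genes with 30 or more counts, and transcripts with 10 or more. Transcript classes, motifs and identities (global alignment, gap costs 10 and 0.5) came from translated GENCODE M21 transcripts. A membrane transcript needed a window of 19 residues with mean Kyte-Doolittle hydropathy of 1.6 or more starting after residue 60. A fragment has an incomplete coding sequence.

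Both tests of libraries were tried on counts simulated with counting noise only. The gene test called 42%, 68%, 82% and 90% of 50 genes changed by 1.25, 1.5, 2 and 3-fold in library 2. It called 0.0509% of 13749 unchanged genes. The transcript test called 4%, 22%, 60% and 76% of 50 genes at the same folds and 0.0433% of 9232 unchanged genes. In the libraries themselves the chi-square of the median gene was 6.45 times counting noise, and 9.40 times for transcript shares. The simulated rates therefore do not carry over to these libraries. The inflation-corrected test was not simulated. Named beside the members were the 5 highest genes of each list, every ligand or receptor partner, the nearest listed gene in level, transcripts with 5% or more of the TPM or classed soluble, and leading markers. A gene that this rule covers is not reported here. The members, lists and tests were chosen with earlier results of these data known. Alternatives were other units, size factors of DESeq2 1.42.0, total counts, other filters, the second table, an inflation-corrected test, other hydropathy limits and leaving out each library. Python was version 3.11.15, with Biopython 1.88 for alignment, matplotlib 3.10.9 for plots, and scipy 1.17.1, numpy 2.4.6 and pandas 2.3.3.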

Additional observations from a re-analysis of the deposited data

How the results depend on the processing

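Among the alternative values of the main results, 96 kept their call, moved by less than the spread between libraries or, for counts, stayed within 1.5 times, 25 moved further, and 2 reversed: Icos over Cd28 and Tigit over Cd226 crossed 1 in CPM of the expected counts. Values per length and values per count gave different ratios between genes. In that unit Icos over Cd28 was 0.972, Ctla4 over Cd28 0.121, Ctla4 over Icos 0.124, Pdcd1 over Cd28 0.111, Tigit over Cd226 0.923, Cd96 over Cd226 2.55, and the inhibitory over the stimulatory sum 0.184. On the second gene table the same ratios were 1.13, 0.468, 0.414, 0.560, 1.44, 3.71 and 0.754. With posterior mean TPM the median of the other co-receptors was 16 TPM and of the signalling and traffic genes 104.8 TPM. On this measure every member except Lag3 and Havcr2 fell by more than its SD. Icos fell to 682, Cd28 to 369 and Tigit to 114 TPM, and all 45 pairs of members kept their order. Among the alternative values for single members, which the tally above leaves out, 205 stayed the same and 18 moved further. A call was lost in 33 and gained in 1. Genes that differed between libraries numbered 7973, against 2804 on the second table, 621 with the inflation-corrected test and 3546 to 5516 with 1 library left out. Members that differed numbered 8, against 0, 0 and 3 to 7 under these settings. Genes with differing transcript shares numbered 8163, against 1298 when inflation-corrected and 6424 to 6704 with 1 library left out. Members with differing shares numbered 4, against 0 when inflation-corrected and 2 to 4 with 1 library left out. The second table held fewer counts, and leaving out 1 library left fewer libraries to test. The cause of these and of the other shifts was not tested. Under total counts 8 members were called, beside 7600 of the 13949 genes tested. Tigit passed the library test, with a ratio of 1.15, and Cd28 no longer did, with a ratio of 1.02 and an adjusted p of 0.170. Depth limits Lag3, Havcr2 and the Havcr2 transcripts. No paired analysis was possible because the series holds 1 group.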
